A study of Mus musculus with 24 samples.

Results

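Mitochondrial DNA of the mouse codes for 13 proteins, and 10 of them are described here: mt-Nd1, mt-Nd2, mt-Nd4, mt-Nd5 and mt-Nd6 of complex I, mt-Cytb of complex III, mt-Co1, mt-Co2 and mt-Co3 of complex IV, and mt-Atp6 of the ATP synthase. They were taken by name, after the Ensembl identifiers of both deposited expression tables had been matched to GENCODE M21 gene symbols. All 10 were listed in both tables, among 15667 genes in the table of uninjected hearts and 15327 in the table of injected hearts. The other 3 protein genes of the molecule, mt-Nd3, mt-Nd4l and mt-Atp8, and its tRNA and rRNA genes were taken as the surroundings of the 10.

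RNA came from hearts of mice at postnatal day 7.5 (P7.5), on a C57BL/6J background. The labels give the tissue as heart apex, while the study's methods name the ventricles. Xinβ KO mice carry a germline allele in which a LacZ-Neo cassette replaces part of Xinβ (Xirp2), a protein of the intercalated disc, and WT mice were their control littermates. The uninjected experiment held 4 WT and 4 Xinβ KO libraries, read as single ends of 50 bases. In the injected experiment pups received AAV9 under the skin on postnatal day 1, carrying either GFP or Flag-tagged human YAP(S127A), a form of the transcriptional coactivator YAP that lacks an inhibitory phosphorylation site, and both were driven by the chicken cardiac troponin T promoter, which is active in cardiomyocytes. Its groups WT/GFP, Xinβ KO/GFP, WT/YAP(S127A) and Xinβ KO/YAP(S127A) held 4 libraries each, read as paired ends of 150 bases. The libraries were strand-specific and selected for poly(A). The values are read counts divided by library sizes that the authors had scaled, and are called CPM here. A CPM value states a gene's reads relative to the scaled size of its library. The 2 tables were never compared in a test because their reads differ in kind.

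The mammalian mitochondrial genome is copied from both strands into long RNAs that carry many genes each. tRNA sequences lie between most of the protein and rRNA genes, and their removal frees the messages, most of which then receive a short poly(A) tail. For messages whose gene ends before its stop codon is complete, the tail supplies the missing bases. The proteins are core subunits that sit in the inner membrane with many nuclear-encoded partners, and the heart, which is packed with mitochondria, holds these messages in large amounts.

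The last 24 bases of each gene are shown because they set what the poly(A) tail must add and where neighbouring genes meet (GENCODE M21 transcripts, GRCm38, 5′ to 3′ on the coding strand, with the last codon or what there is of it in capitals). 7 of the 10 ended in a whole stop codon, TAA or TAG. The other 3, mt-Nd4, mt-Cytb and mt-Co3, ended in a lone T.
mt-Nd1 (chrM:3684-3707, plus strand): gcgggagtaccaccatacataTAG
mt-Nd2 (chrM:4928-4951, plus strand): ctagccccccaactaattaccTAG
mt-Nd4 (chrM:11521-11544, plus strand): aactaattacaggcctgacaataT
mt-Nd5 (chrM:13542-13565, plus strand): ttatactcaattaatctcgagTAA
mt-Nd6 (chrM:13552-13575, minus strand): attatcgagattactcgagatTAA
mt-Cytb (chrM:15265-15288, plus strand): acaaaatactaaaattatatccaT
mt-Co1 (chrM:6849-6872, plus strand): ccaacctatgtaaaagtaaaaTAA
mt-Co2 (chrM:7673-7696, plus strand): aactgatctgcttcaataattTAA
mt-Co3 (chrM:9367-9390, plus strand): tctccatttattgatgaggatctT
mt-Atp6 (chrM:8584-8607, plus strand): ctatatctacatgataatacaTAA

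9 of the 10 genes lie on the plus strand of the reference and mt-Nd6 alone on the minus strand. The end of mt-Nd5 and the end of mt-Nd6 overlap on opposite strands by 14 bases (in capitals below), and mt-Atp6 begins inside mt-Atp8, with 43 bases in common (in capitals). A read from such a stretch belongs to both genes. Whether the authors' counting used the strand is not given in the sources used here, so reads from overlapping genes on opposite strands cannot be told apart with certainty.
mt-Nd5 end over mt-Nd6 (chrM:13532-13565): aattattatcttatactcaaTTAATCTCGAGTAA
mt-Atp8 into mt-Atp6 (chrM:7907-7989): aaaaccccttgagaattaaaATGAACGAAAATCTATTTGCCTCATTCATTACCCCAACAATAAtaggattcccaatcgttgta

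A second limit on these values is that the nuclear genome holds copies of mitochondrial DNA that are annotated as genes of their own and listed in the same tables. At 95% identity or more over 100 bases or more, blastn matched 7 of the 10 genes to such copies. Gm10925, Gm28661, Gm28437 and Gm28439, neighbours on chromosome 1, were identical to mt-Atp6 over 678 bases, to mt-Co2 over 681, to mt-Co3 over 783 and to mt-Nd4 over its first 876. Gm29216 of the same cluster matched the last 483 bases of mt-Co1 with 1 mismatch. On other chromosomes, Gm13340 matched mt-Co1 over all 1545 bases with 37 mismatches, Gm13341 matched mt-Co2, Gm13339 matched part of mt-Nd2 and Gm4076 matched part of mt-Nd5. mt-Nd1, mt-Nd6 and mt-Cytb had no match. The sequences below show how much a read must span to tell a gene from its copy. In the first pair, 148 identical bases lie between the differing bases in capitals, a run that a read of 50 bases fits inside. In the second pair only 1 base differs, and in the third none does.
mt-Co1 (chrM:5640-5789, plus strand): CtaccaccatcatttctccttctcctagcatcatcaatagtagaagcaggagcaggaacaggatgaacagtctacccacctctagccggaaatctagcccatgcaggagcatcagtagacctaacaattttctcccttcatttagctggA
Gm13340 (chr2:22589186-22589335, minus strand): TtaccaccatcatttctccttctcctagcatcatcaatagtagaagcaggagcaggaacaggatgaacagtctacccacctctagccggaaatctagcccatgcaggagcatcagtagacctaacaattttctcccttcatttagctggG
mt-Co1 (chrM:6390-6449, plus strand): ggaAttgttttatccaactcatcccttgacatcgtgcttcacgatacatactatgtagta
Gm29216 (chr1:24616129-24616188, minus strand): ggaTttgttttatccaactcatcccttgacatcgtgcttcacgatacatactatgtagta
mt-Atp6 (chrM:8028-8127, plus strand): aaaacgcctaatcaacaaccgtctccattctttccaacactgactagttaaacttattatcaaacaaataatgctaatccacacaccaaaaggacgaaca
Gm10925 (chr1:24614451-24614550, minus strand): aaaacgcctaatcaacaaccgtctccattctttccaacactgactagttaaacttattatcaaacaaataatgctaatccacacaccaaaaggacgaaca

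The values convert back to whole read counts, which the authors' pipeline had made from read coverage, of between 20490875 and 31154155 per uninjected library and between 15015038 and 19444404 per injected library. Xirp2, the targeted gene, stood at 106 to 168 CPM in uninjected WT and 0.291 to 0.692 in uninjected Xinβ KO hearts, at 99.0 to 149 in WT/GFP and 56.0 to 93.8 in WT/YAP(S127A), and at 0.176 to 0.497 in Xinβ KO/GFP and 0 to 0.972 in Xinβ KO/YAP(S127A), so it was low in every library labelled as KO. All 14 cardiomyocyte markers were listed, none at 0 throughout, and they summed to between 68738 and 116496 CPM per library. In 3 libraries several of the 10 genes stood apart from the rest of their group: Xinβ KO/GFP replicate 2, WT/GFP replicate 3 and uninjected Xinβ KO replicate 1. The medians over the 10 that rest on these libraries are given with and without them. Nothing in the labels says how many animals a library holds, so the p-values measure the spread between libraries.

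The 10 messages took a large part of every library. Among all listed genes ranked by CPM, mt-Co1 was the first in both tables, and the 10 lay between rank 1 and rank 30 in uninjected and between rank 1 and rank 31 in injected hearts. Together they held 11.4 ± 1.22% of the listed reads in uninjected WT and 12.7 ± 0.284% in uninjected Xinβ KO (mean ± SD, n = 4 in every group). In injected hearts they held 16.1 ± 2.16% in WT/GFP, 18.3 ± 2.82% in Xinβ KO/GFP, 16.4 ± 1.95% in WT/YAP(S127A) and 14.3 ± 1.23% in Xinβ KO/YAP(S127A). With the nuclear copies added, the shares rose to between 16.9% and 23.1% over the 6 groups.

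**Figure D1:**
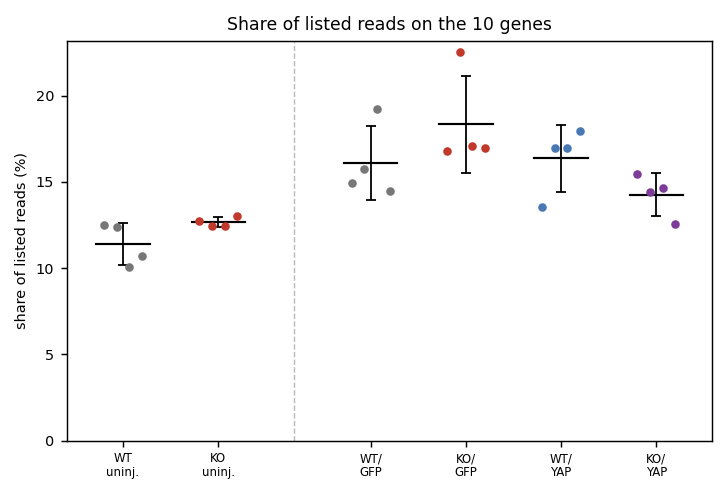
Percent of listed reads on the 10 mitochondrially encoded genes (vertical axis) in each library (points) of the 6 groups (horizontal axis), with the group mean and SD as bars and a dashed line between the uninjected and injected tables. The 4 Xinβ KO/YAP(S127A) libraries (12.5 to 15.4%) lie below all 4 Xinβ KO/GFP libraries (16.8 to 22.6%), and the other pairs of groups within a table overlap.

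Per length, the order of the 10 levels ran from mt-Co1 at the top in both tables down to mt-Nd2 in uninjected and mt-Atp6 in injected hearts. Levels here are CPM per kb of exon, averaged over the libraries of a table. In uninjected hearts mt-Co1 (23238) led mt-Cytb (16259), mt-Co3 (13877), mt-Nd1 (12668), mt-Co2 (12516), mt-Nd4 (9333), mt-Nd6 (6338), mt-Nd5 (5887), mt-Atp6 (4673) and mt-Nd2 (4584). mt-Cytb was below mt-Co1 in 8 of 8 libraries and mt-Nd4 below mt-Co2 in 8 of 8, but mt-Nd5 was below mt-Nd6 in only 3 of 8 and mt-Nd2 below mt-Atp6 in 4 of 8, so the members of these pairs did not differ beyond their spread.

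In injected hearts the per-length order was mt-Co1 (36541), mt-Cytb (19420.4), mt-Nd1 (18253), mt-Co2 (16470.4), mt-Co3 (12068), mt-Nd4 (11497), mt-Nd6 (9490.0), mt-Nd2 (8560.3), mt-Nd5 (7989.8) and mt-Atp6 (3865). The span from the highest to the lowest was 9.45-fold, against 5.07-fold in uninjected hearts. The 9.45-fold span rests on mt-Atp6 counted without its nuclear copy. mt-Nd1 was below mt-Cytb in 12 of 16 libraries and mt-Nd5 below mt-Nd2 in 12 of 16, while mt-Cytb was below mt-Co1, mt-Co3 below mt-Co2 and mt-Nd6 below mt-Nd4 in 16 of 16. mt-Atp6 has an identical nuclear copy, and summed with Gm10925 it stood at 16400 CPM per kb rather than 3865. Such sums may count a read more than once, since the treatment of reads that fit several genes is not given in the sources used here. With copies added to every gene, mt-Co1 was still first, at 42300 CPM per kb in injected and 41200 in uninjected hearts, but mt-Co2 (32400 and 29600) and mt-Co3 (23700 and 27800) stood above mt-Cytb, which has no copy.

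The SD of a gene's log2 level among libraries of a group had a median over the 10 of 0.18 in uninjected and 0.23 in injected hearts. With each library's mean over the 10 subtracted, the medians were 0.10 and 0.10. That mean holds the gene itself, which lowers the SD somewhat in any case, and mt-Nd5 in uninjected hearts (0.37 before and 0.35 after) and mt-Atp6 in injected hearts (0.70 and 0.50) kept the largest spread. Nuclear genes over 1000 CPM had a median SD of 0.20 over 65 genes in uninjected and 0.17 over 68 genes in injected hearts. In injected hearts Xinβ KO/GFP replicate 2 was the highest of all 16 libraries for 9 of the 10 genes, and Xinβ KO/YAP(S127A) replicate 4 the lowest for 6. In uninjected hearts WT replicate 3 was the lowest of 8 for 9 of the 10 genes.

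**Figure D2:**
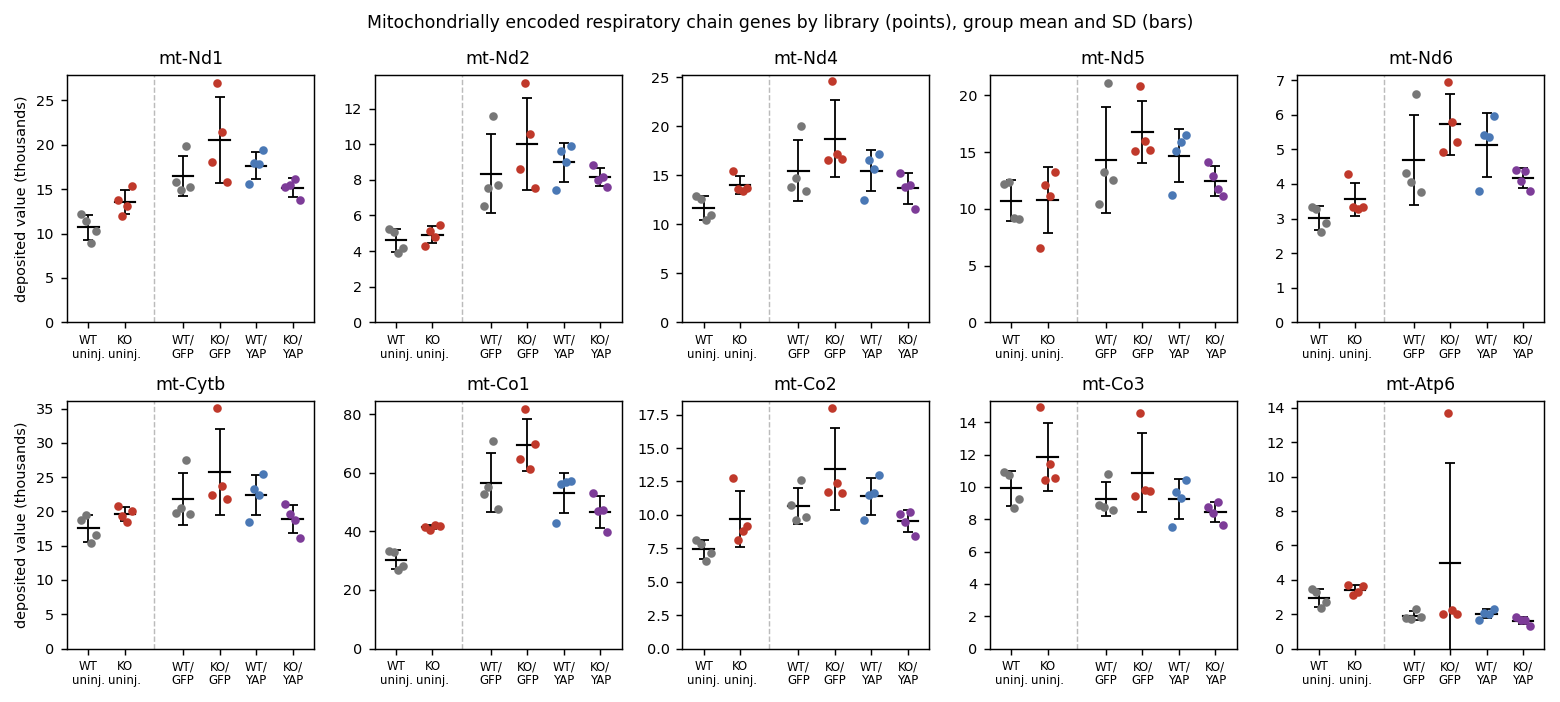
Deposited value in CPM divided by 1000 (vertical axes, each from 0 and each with its own range) of the 10 genes in each library (points) by group (horizontal axes), with the group mean and SD as bars and a dashed line between the uninjected and injected tables. mt-Co1 in the 4 uninjected Xinβ KO libraries sits between 40491 and 42157, above all 4 WT libraries, and 1 Xinβ KO/GFP library is the highest point of 9 of the 10 panels and stands far off for mt-Atp6.

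The uninjected comparison asked what loss of Xinβ changes in the P7.5 heart. None of the 10 genes passed the test (1, mt-Co1, with edgeR and 1 with DESeq2), while 6.69% of the 15598 genes tested did (limma on log2(CPM + 1), Benjamini-Hochberg adjusted p under 0.05 over all genes tested). At an unadjusted p under 0.05 there were 3 of 10, mt-Nd1, mt-Co1 and mt-Co2, beside 22.5% of all genes. The groups did not overlap for 2 of 10, mt-Nd4 and mt-Co1, beside 16.4% of all genes. The median log2 fold change over the 10 was 0.24, with 9 positive, against 0.00 over all genes tested. It was 0.20 without Xinβ KO replicate 1 and 0.10 with scaling to the column sum. In bulk tissue, fewer cells of a type and less RNA per cell cannot be told apart.

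mt-Co1 codes for the catalytic subunit of cytochrome c oxidase, which holds the heme and copper centre where oxygen is reduced. It stood at 33104, 33076, 26839.7 and 28242 CPM in the 4 uninjected WT hearts and at 41400.3, 40491, 42157 and 41914 in the 4 Xinβ KO hearts. The KO libraries lay close together and all above the WT libraries. The log2 fold change was 0.46 ± 0.13 (SE, 95% interval 0.16 to 0.76), and the limma adjusted p of 0.0732 missed the threshold. Without Xinβ KO replicate 1 the fold change was 0.46 and the limma adjusted p 0.0381, and with all libraries mt-Co1 was called by limma without the trend, by edgeR and by DESeq2. mt-Co1 also took a larger part of the summed CPM of the 10 genes, 31.2 ± 1.09% in KO against 27.9 ± 0.333% in WT (mean ± SD, n = 4), with every KO library above the highest WT library (28.3%). The parts of mt-Cytb (14.2 to 15.1% in KO, 15.6 to 16.4% in WT) and mt-Nd2 (3.13 to 4.04%, 4.12 to 4.33%) were lower in every KO library. In injected hearts the part of mt-Co1 was 35.8 ± 3.49% in Xinβ KO/GFP and 35.5 ± 1.27% in WT/GFP, and these groups overlapped. Scaling of libraries cannot move such parts, for which no test was run.

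mt-Co2 codes for the subunit that takes electrons from cytochrome c, and mt-Co3 for the third core subunit of the oxidase. mt-Co2 stood at 8152, 7800.2, 6573 and 7180.1 CPM in uninjected WT and at 12776, 8089.7, 8766 and 9148 in Xinβ KO. The first KO library was well above the other 3, the lowest of which lay under the highest WT library. The log2 fold change of mt-Co2 was 0.37 ± 0.16 (limma adjusted p 0.218), and 0.23 without KO replicate 1. mt-Co3 had the same high library, at 14959.5 CPM beside 10422 to 11445 in the other 3, and a log2 fold change of 0.25 ± 0.15 that went to 0.13 without it.

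Of the complex I genes, mt-Nd1 and mt-Nd4 had the larger differences in uninjected hearts. mt-Nd1, a membrane subunit next to the ubiquinone site, stood at 12179, 11422, 8903 and 10265 CPM in WT and 13729.8, 12017, 13088 and 15381 in Xinβ KO, a log2 fold change of 0.35 ± 0.14 (limma adjusted p 0.184). The lowest KO library lay just under the highest WT library. mt-Nd4, one of the proton-pumping membrane subunits, stood at 12917, 12582, 10404 and 10932 in WT and 15411, 13570.3, 13410.0 and 13665 in KO, with a log2 fold change of 0.26 ± 0.12 (limma adjusted p 0.254). Its groups lay apart by a narrow margin.

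mt-Nd5, another pumping subunit of complex I, had the lone negative log2 fold change of the 10, -0.02 ± 0.23, and the sign rested on Xinβ KO replicate 1. Its values were 12176, 12366, 9162 and 9104 CPM in WT and 6573, 12072, 11166 and 13286 in KO. Without that library the log2 fold change was 0.20. The same library was the highest of its group for mt-Nd6, mt-Nd4, mt-Cytb, mt-Co2, mt-Co3 and mt-Atp6. Its ratio of mt-Nd5 to mt-Nd6 was 1.54, where the other 7 uninjected libraries had 3.16 to 3.98.

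The other 4 genes had log2 fold changes between 0.11 and 0.23 in uninjected hearts. mt-Nd2 had a log2 fold change of 0.11 ± 0.14, mt-Nd6 of 0.23 ± 0.13 and mt-Cytb, the single mitochondrially encoded subunit of complex III, of 0.17 ± 0.13. mt-Atp6, the subunit of the ATP synthase that forms part of its proton path, stood at 2338 to 3490.5 CPM in WT and 3115 to 3670.4 in KO, with a log2 fold change of 0.23 ± 0.14. Their limma adjusted p-values ran from 0.356 for mt-Nd6 to 0.703 for mt-Nd2.

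**Figure D3:**
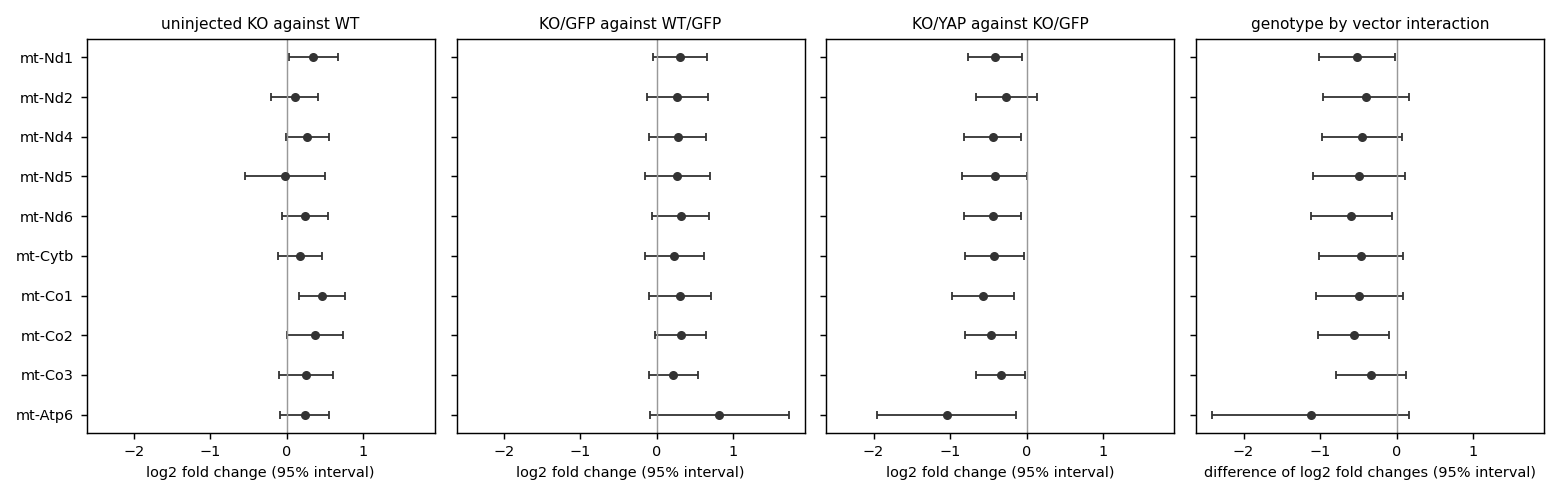
log2 fold change (horizontal axes) with its 95% interval for the 10 genes (rows) in the 3 comparisons named above the panels, and the difference of log2 fold changes between genotypes in the right panel, from limma on log2(CPM + 1). 10 of 10 points lie right of 0 in Xinβ KO/GFP versus WT/GFP and 10 of 10 left of 0 in the 2 panels on the right, and in these 3 panels the widest intervals belong to mt-Atp6.

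With the GFP vector in both genotypes, the comparison of Xinβ KO/GFP with WT/GFP gave positive log2 fold changes for all 10 genes and a call for none (limma, with 0 also by edgeR and by DESeq2). 13.7% of the 14597 genes tested in injected hearts were called here. At an unadjusted p under 0.05 there were 0 of 10 beside 27.4% of all genes, and the groups overlapped for every one of the 10, beside 15.3% of all genes whose groups did not. The median over the 10 was 0.29 against -0.01 over all genes tested. Leaving out Xinβ KO/GFP replicate 2 brought it to 0.15 and leaving out WT/GFP replicate 3 to 0.41, and scaling to the column sum gave 0.18.

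In that comparison mt-Co1 stood at 52692, 54988, 70899.5 and 47593 CPM in WT/GFP and at 64795, 81749, 61204 and 69831 in Xinβ KO/GFP, a log2 fold change of 0.30 ± 0.19 (limma adjusted p 0.326). WT/GFP replicate 3 was above 3 of the 4 KO libraries. mt-Nd1 had 0.30 ± 0.16, mt-Nd6 0.31 ± 0.18 and mt-Co2 0.31 ± 0.16 on the log2 scale. Those of mt-Nd2, mt-Nd4, mt-Nd5, mt-Cytb and mt-Co3 ran from 0.21 for mt-Co3 to 0.28 for mt-Nd4. Without Xinβ KO/GFP replicate 2 the 10 values lay between 0.07 (mt-Cytb and mt-Co3) and 0.22 (mt-Co1). Without WT/GFP replicate 3 they lay between 0.29 (mt-Co3) and 0.49 (mt-Nd6), with mt-Atp6 at 0.91.

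mt-Atp6 showed how far 1 library could carry a value. It stood at 1797, 1711, 2301 and 1819 CPM in WT/GFP and at 2010.4, 13689, 2230.3 and 2001 in Xinβ KO/GFP. Replicate 2 of the KO was far above every other injected library, and the remaining 3 were close to WT. The log2 fold change was 0.81 ± 0.43 with it and 0.13 without it. The identical nuclear copy Gm10925 was also highest in replicate 2 but by a smaller factor, with 8746, 14068, 9341 and 8923 CPM in the same 4 libraries, so mt-Atp6 stood at 0.973 of Gm10925 in replicate 2 and at 0.224 to 0.241 in the other 15 injected libraries.

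YAP(S127A) in Xinβ KO hearts went with lower levels of all 10 messages than GFP in Xinβ KO hearts, though none passed the limma test. edgeR called 3 of the 10 and DESeq2 5, and limma called 2 without the trend, with median-ratio scaling or with a pseudocount of 0.1. The question here was what active YAP changes in hearts without Xinβ. 14.8% of all genes tested were called. At an unadjusted p under 0.05 there were 8 of 10, all but mt-Nd2 and mt-Nd5, beside 29.6% of all genes. The groups did not overlap for 8 of 10, all but mt-Nd1 and mt-Nd2, beside 17.5%. The median log2 fold change over the 10 was -0.43, with 10 negative, against 0.01 over all genes tested, and -0.31 without Xinβ KO/GFP replicate 2. The summed share of listed reads was lower by 4.07 percentage points, with the groups apart, and without that library the means were 16.9% in the GFP group and 14.3% with YAP(S127A).

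The 2 lowest adjusted p-values belonged to complex IV. mt-Co1 stood at 64795, 81749, 61204 and 69831 CPM in the Xinβ KO/GFP libraries and at 53111, 46845, 47151 and 39703 in Xinβ KO/YAP(S127A), a log2 fold change of -0.57 ± 0.19 (95% interval -0.97 to -0.17, limma adjusted p 0.0532). mt-Co2 stood at 11703, 17961, 12388 and 11619.7 and 10083, 9475, 10216 and 8404, a log2 fold change of -0.47 ± 0.16 (limma adjusted p 0.0537). Every YAP(S127A) library was below every GFP library for both genes. Both missed the threshold narrowly, and both passed it with edgeR and with DESeq2 on the recovered reads, the latter also calling mt-Nd1, mt-Nd4 and mt-Cytb and the former mt-Atp6. mt-Co3 had the smaller value of the complex, -0.34 ± 0.15 on the log2 scale (limma adjusted p 0.146). Without Xinβ KO/GFP replicate 2 the log2 fold changes were -0.49 for mt-Co1, -0.32 for mt-Co2 and -0.20 for mt-Co3.

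The complex I and III genes had log2 fold changes between -0.45 and -0.27, and none passed limma. mt-Nd4 stood at 16564, 24579.9, 17214 and 16649 CPM in the Xinβ KO/GFP libraries and 15267, 13815, 14054 and 11539 in Xinβ KO/YAP(S127A), a log2 fold change of -0.44 ± 0.18. mt-Cytb stood at 22441, 35136, 23693 and 21801 and 21114, 19558, 18724 and 16168, a log2 fold change of -0.43 ± 0.18. For both, every YAP(S127A) library was below every GFP library. mt-Nd6, read from the other strand, had -0.45 ± 0.18, mt-Nd5 -0.42 ± 0.20, mt-Nd1 -0.41 ± 0.16 and mt-Nd2 -0.27 ± 0.19 on the log2 scale. The limma adjusted p-values of these 6 genes were above those of mt-Co1 and mt-Co2 and reached 0.367 for mt-Nd2. Without Xinβ KO/GFP replicate 2 the same 6 genes lay between -0.35 (mt-Nd6) and -0.11 (mt-Nd2), with mt-Cytb at -0.27. mt-Atp6 had -1.04 ± 0.43 with all libraries and -0.36 without that one.

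Against hearts that express Xinβ, Xinβ KO/YAP(S127A) hearts had negative median log2 fold changes over the 10, but none of the 10 was called. The summed share of listed reads differed by -1.83 percentage points from WT/GFP (pooled SD 1.76) and by -2.10 from WT/YAP(S127A) (pooled SD 1.63). The shares overlapped in both comparisons. In Xinβ KO/YAP(S127A) versus WT/GFP 0 of 10 were called beside 0.0206% of all genes, 0 of 10 had an unadjusted p under 0.05 beside 6.08%, and the groups overlapped for all 10 beside 4.45% that did not. The median over the 10 was -0.16, with no positive value, and without WT/GFP replicate 3 it was -0.04, with 3 of 10 positive. In Xinβ KO/YAP(S127A) versus WT/YAP(S127A) 0 of 10 were called beside 0.0411%, 0 of 10 had an unadjusted p under 0.05 beside 11.1%, and none had groups apart beside 9.23%. edgeR and DESeq2 called 0 of 10 in both. The median was -0.22, with no positive value, and mt-Nd6 (-0.28 ± 0.18) and mt-Co2 (-0.25 ± 0.16) stood farthest down after mt-Atp6 (-0.31 ± 0.43). The comparisons share groups, and so their values are not independent of each other.

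In hearts with intact Xinβ none of the 10 passed the test of the vector. For WT/YAP(S127A) versus WT/GFP 0 of 10 genes were called beside 0.0% of all genes, 0 of 10 had an unadjusted p under 0.05 beside 6.93%, and none had groups apart beside 4.32%. edgeR and DESeq2 called 0 of 10 as well. The median log2 fold change was 0.08, with 8 of 10 positive, and 0.17 without WT/GFP replicate 3. The 95% interval of mt-Co1 was -0.48 to 0.32, that of mt-Cytb -0.34 to 0.43 and that of mt-Nd6 -0.23 to 0.52. mt-Co1 stood at 42925, 56138, 56691 and 56985 CPM in WT/YAP(S127A), where replicate 1 was well below the other 3.

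The difference between the vector's effects in the 2 genotypes was tested as an interaction. None of the 10 passed, beside 7.56% of all genes, and 3 of 10, mt-Nd1, mt-Nd6 and mt-Co2, had an unadjusted p under 0.05 beside 23.7% of all genes. edgeR called 0 of 10 and DESeq2 1, mt-Co2. The median over the 10 was -0.49, all 10 were negative, and the median over all genes tested was 0.01. Over the 10 it was -0.38 without Xinβ KO/GFP replicate 2 and -0.61 without WT/GFP replicate 3. mt-Nd6 had -0.59 ± 0.25 (limma adjusted p 0.156) and mt-Co2 -0.56 ± 0.22 (limma adjusted p 0.131). Without WT/GFP replicate 3, mt-Nd6 alone was called.

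Of the 9 nuclear copies, 4 fell in Xinβ KO/YAP(S127A) versus Xinβ KO/GFP, beside 14.8% of all genes called, and the other 5 had log2 fold changes between -0.60 and -0.31 that missed the threshold. Gm10925 had a log2 fold change of -0.51 (limma adjusted p 0.0419), Gm28661 of -0.49 (0.0368), Gm29216 of -0.64 (0.0124) and Gm13340 of -0.59 (0.0232), each with limma's adjusted p in parentheses. Without Xinβ KO/GFP replicate 2 only Gm29216 stayed called (-0.55, limma adjusted p 0.0245), and the other 3 had -0.35, -0.35 and -0.48 (0.0786, 0.0619 and 0.0535). Over identical sequence a read fits the gene and its copy equally well, so these values and those of mt-Atp6, mt-Co2 and mt-Co1 may hold the same reads.

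The ratio of gene to copy differed between pairs and between the tables. mt-Co2 and Gm28661 had almost equal values in uninjected hearts (ratio 1.00 in all 8 libraries) and nearly so in injected hearts (1.02 to 1.07), and mt-Co3 and Gm28437 likewise (1.00, then 1.02 to 1.05). Other pairs shifted between the tables. The median ratio of mt-Atp6 to Gm10925 was 0.487 in uninjected and 0.231 in injected hearts, that of mt-Nd4 to Gm28439 was 4.52 and 3.09, and that of mt-Co1 to Gm29216 was 2.64 and 7.69. mt-Co1 stood at 2.54 to 3.02 times Gm13340 with reads of 50 bases and at 28.1 to 44.3 times with paired reads of 150. For mt-Nd5 against Gm4076, whose longest identical run is 82 bases, the ratio was 13.3 to 15.5 and then 1345 to 2691. mt-Nd2 against Gm13339 went from between 19.1 and 30.7 to between 878 and 1899. These are descriptions of tables that also differ in vector and batch, and the part that read length plays was not tested.

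Uninjected Xinβ KO replicate 1 stood apart in these ratios as well. mt-Nd4 was 8.32 times Gm28439 there and 4.20 to 4.99 times in the other 7 libraries. mt-Co1 was 1.89 times Gm29216 there and 2.6 to 2.77 times elsewhere. Values for Gm28439 were 3076, 2942, 2086 and 2229.9 CPM in WT and 1853, 3206, 2964 and 3023 in KO, so the copy was lowest in the library where mt-Nd4 was highest.

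**Figure D4:**
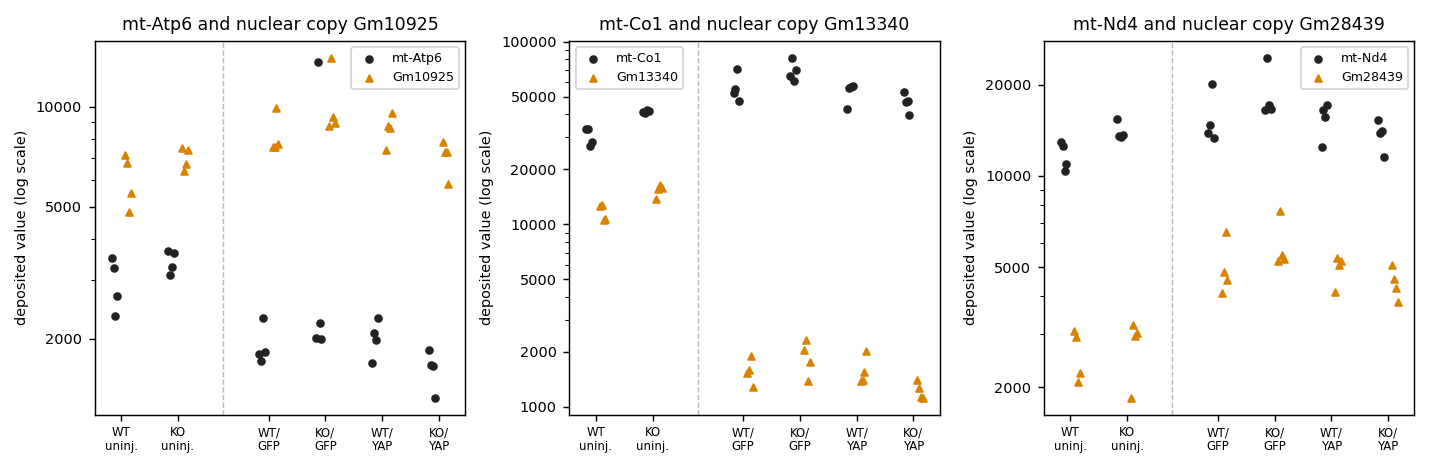
Deposited value in CPM on a log scale (vertical axes, each with its own range) of 3 genes (circles) and of a nuclear copy of each (triangles) in every library by group (horizontal axes), with a dashed line between the uninjected and injected tables. mt-Atp6 leaves its place under Gm10925 in 1 Xinβ KO/GFP library, Gm13340 lies far lower in injected than in uninjected hearts, and Gm28439 is at its lowest in 1 uninjected Xinβ KO library.

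Several of the tRNA genes that lie between the 10 passed the test. Of 22 mitochondrial tRNA genes, 17 were listed for uninjected and 18 for injected hearts, at low values whose averages ran from 1.09 to 312 CPM in uninjected and from 2.28 to 423 CPM in injected hearts. In Xinβ KO/YAP(S127A) versus Xinβ KO/GFP 16 of the 23 other genes of the molecule fell and none rose, 15 tRNA genes and mt-Atp8, where 14.8% of all genes were called in either direction. The median over the 23 was -0.79. The genes that fell lay on both strands, 9 on the plus and 7 on the minus strand.

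mt-Tw, the tRNA for tryptophan that follows mt-Nd2, stood at 22.2, 30.5, 25.3 and 20.6 CPM in the Xinβ KO/GFP libraries and 10.7, 11.1, 9.95 and 9.55 in Xinβ KO/YAP(S127A), a log2 fold change of -1.17 ± 0.15 (limma adjusted p 0.000159). mt-Tp, the tRNA for proline, stood at 23.5, 32.6, 21.1 and 22.6 and 11.2, 13.2, 11.4 and 11.7, a log2 fold change of -0.99 ± 0.13 (limma adjusted p 0.000115). Both sets were wholly apart. mt-Tt, for threonine, which follows mt-Cytb, had -1.46 ± 0.23 at values under 10 CPM, and mt-Ta, for alanine, -0.96 ± 0.17. mt-Atp8, the small subunit whose gene runs into mt-Atp6, stood at 1707, 2579, 1693 and 1686 CPM and 1528, 1406, 1259.8 and 1088 and had -0.52 ± 0.15 (limma adjusted p 0.0248). 9 genes fell without Xinβ KO/GFP replicate 2, and over all alternatives the count was 8 to 18, with none that rose.

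In Xinβ KO/GFP versus WT/GFP 8 of the 23 rose and none fell, all tRNA genes, beside 13.7% of all genes called in either direction. They were mt-Tt (1.22 ± 0.23 on the log2 scale), mt-Tl1 (0.86), mt-Ta (0.68), mt-Tw (0.68), mt-Tn (0.67), mt-Tc (0.62), mt-Tk (0.59) and mt-Tp (0.54). The median over the 23 was 0.28. Leaving out single libraries gave 5 (without WT/GFP replicate 1 or 2) to 9 called. Without Xinβ KO/GFP replicate 2 there were 7, and the call of mt-Tc was lost (0.55, limma adjusted p 0.0637). In uninjected hearts 3 of 22 rose, mt-Tp (0.89), mt-Ta (0.68) and mt-Tl1 (0.64), and mt-Tm fell (-0.96), beside 6.69% of all genes. edgeR gave 3 and 1, DESeq2 9 and 1, and a replicate block 0 and 0. Leaving out single libraries moved the count of genes that rose from 0 (without KO replicate 2, WT replicate 1 or WT replicate 3) to 7 (without KO replicate 4).

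The 2 genotypes differed in the vector's effect for 9 of the 23, all tRNA genes with a lower interaction value, such as mt-Tt (-1.95 ± 0.33) and mt-Tw (-1.68 ± 0.22), beside 7.56% of all genes. mt-Tw was also lower in Xinβ KO/YAP(S127A) than in WT/YAP(S127A), with -1.01 ± 0.15 on the log2 scale, a call made in 21 of 28 alternatives and lost without any 1 of the Xinβ KO/YAP(S127A) libraries or WT/YAP(S127A) replicate 2, 3 or 4 (limma adjusted p up to 0.113). It was the 1 gene of the 23 that limma and edgeR called there, beside 0.0411% of all genes, DESeq2 called 3, and 13 had an unadjusted p under 0.05 beside 11.1%. None of the 23 was called by limma, edgeR or DESeq2 in Xinβ KO/YAP(S127A) versus WT/GFP, with 7 at an unadjusted p under 0.05 beside 6.08% of all genes, or in WT/YAP(S127A) versus WT/GFP, with 3 beside 6.93%. The rRNA genes mt-Rnr1 and mt-Rnr2 were not called by limma with all libraries in any comparison, with 0.59 ± 0.18, 0.45 ± 0.19 and -0.49 ± 0.19 on the log2 scale for mt-Rnr2 in uninjected Xinβ KO versus WT, in Xinβ KO/GFP versus WT/GFP and then in Xinβ KO/YAP(S127A) versus Xinβ KO/GFP. mt-Rnr2 was called in uninjected hearts without Xinβ KO replicate 1 (0.73, limma adjusted p 0.0203) and in Xinβ KO/GFP versus WT/GFP without WT/GFP replicate 3 (0.61, limma adjusted p 0.0442), and DESeq2 called it in uninjected hearts, for the vector in Xinβ KO hearts and in the interaction. RNA without a poly(A) tail is meant to be removed by the selection. A list of rRNA and other RNA without a tail holds mt-Rnr1 and mt-Rnr2 themselves beside nuclear genes. Of its genes 1 of 4 tested, Gm26917, rose in uninjected hearts (limma, with 1 by edgeR and 2 by DESeq2), beside 6.69% of all genes called. In Xinβ KO/GFP versus WT/GFP limma called 0 of 7, with 1 at an unadjusted p under 0.05, beside 13.7% and 27.4% of all genes. The vector in Xinβ KO hearts gave the same counts beside 14.8% and 29.6%, and there DESeq2 called 1. Whether these reads came from free tRNA or from uncut precursors was not tested.

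**Figure D5:**
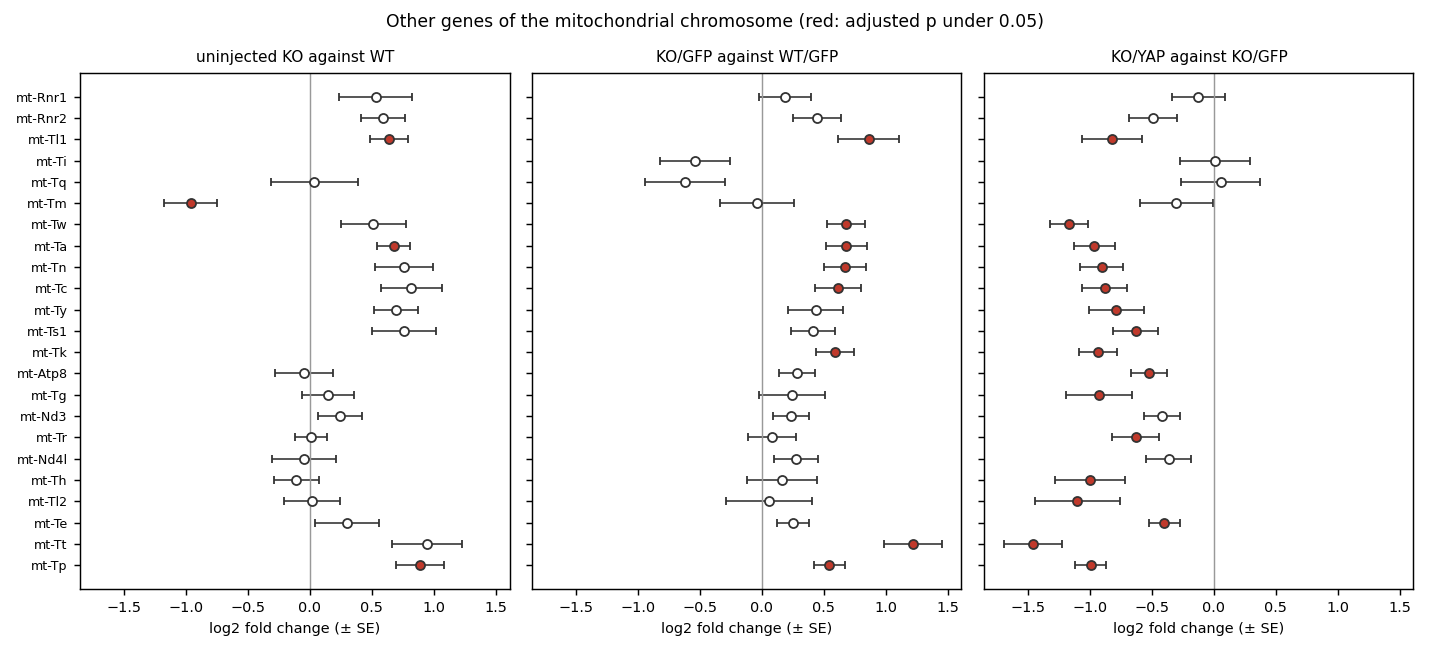
log2 fold change with its SE (horizontal axes) of the other 23 listed genes of the mitochondrial chromosome, in genome order from top to bottom, in 3 comparisons, with filled red circles for a limma adjusted p under 0.05 and open circles otherwise. 16 filled circles lie left of 0 in Xinβ KO/YAP(S127A) versus Xinβ KO/GFP and 8 lie right of 0 in Xinβ KO/GFP versus WT/GFP.

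Of 11 genes for mitochondrial transcription, 11 were tested in uninjected and 10 in injected hearts. With all libraries, limma on the values as deposited, edgeR and DESeq2 called 0 in any comparison. At an unadjusted p under 0.05 there were 0 in uninjected hearts, 0 in Xinβ KO/GFP versus WT/GFP, and 1 for the vector in Xinβ KO hearts. Of all genes 6.69%, 13.7% and 14.8% were called in these 3 and 22.5%, 27.4% and 29.6% had such a p. Polrmt, the mitochondrial RNA polymerase, had log2 fold changes of -0.01 in uninjected hearts, 0.21 in Xinβ KO/GFP versus WT/GFP and then -0.09 in Xinβ KO/YAP(S127A) versus Xinβ KO/GFP. Tfam, which packs mitochondrial DNA and starts its transcription, had -0.04, -0.23 and 0.25 in the same order, the last 2 opposite in sign to the 10 genes (limma adjusted p 0.202 and 0.153). Without Xinβ KO/GFP replicate 2 these 2 were -0.12 and 0.14, and with scaling to the column sum limma called the last (0.38, adjusted p 0.0465).

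Of 22 genes for mitochondrial RNA processing and stability, 0 were called in uninjected hearts by limma, beside 6.69% of all genes. There 4 had an unadjusted p under 0.05, beside 22.5% of all genes, and edgeR called 0 and DESeq2 3. In Xinβ KO/GFP versus WT/GFP 2 rose, beside 13.7% of all genes called. In Xinβ KO/YAP(S127A) versus Xinβ KO/GFP 3 fell and 1 rose, beside 14.8%. Ptcd1, a pentatricopeptide protein that acts on leucine tRNA, had 0.48 ± 0.11 and then -0.56 ± 0.11 on the log2 scale. Ptcd2, which acts on the mt-Cytb message, had 0.38 ± 0.10 and then -0.44 ± 0.10. Hsd17b10, a subunit of the mitochondrial RNase P that cuts tRNA 5′ ends, fell with YAP(S127A) in Xinβ KO hearts (-0.53 ± 0.12), and Fastkd2, a protein of mitochondrial RNA granules, rose (0.43 ± 0.14). The call of Fastkd2 was made in only 12 of 28 alternatives, with 0.28 and a limma adjusted p of 0.108 without Xinβ KO/GFP replicate 2, while those of Ptcd1, Ptcd2 and Hsd17b10 for the vector were made in 28. Lrpprc and Slirp, partners that stabilise the messages, were not called, with -0.18 and 0.01 in uninjected hearts, -0.07 and 0.12 for Xinβ KO/GFP versus WT/GFP, and 0.21 and 0.10 for the vector in Xinβ KO hearts. Single libraries carried these values. Slirp went to -0.30 in uninjected hearts without Xinβ KO replicate 1, and without Xinβ KO/GFP replicate 2 it went to -0.18 and 0.40 in the injected comparisons, where Lrpprc went to 0.015 and 0.12.

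Of 14 genes for mitochondrial DNA replication and upkeep, 1, 2 and 1 were called in uninjected hearts, in Xinβ KO/GFP versus WT/GFP and for the vector in Xinβ KO hearts, beside 6.69%, 13.7% and 14.8% of all genes. Slc25a4 was called in each of the 3. It codes for the ADP/ATP carrier of heart and muscle. Its log2 fold change was 0.77 ± 0.17 in uninjected hearts, 0.55 ± 0.10 in Xinβ KO/GFP versus WT/GFP and, with the opposite sign, -0.63 ± 0.10 in Xinβ KO/YAP(S127A) versus Xinβ KO/GFP (limma adjusted p 0.0302, 0.00254 and 0.000943). Dna2, a nuclease and helicase, fell in Xinβ KO/GFP versus WT/GFP (-0.53 ± 0.15), where edgeR and DESeq2 each called 3 of the 14. The call of Slc25a4 in uninjected hearts was made in 13 of 20 alternatives and was lost with a replicate block (limma adjusted p 0.0987) and without single libraries (up to 0.101), while in both injected comparisons it was made in 28 of 28. That of Dna2 was made in 23 of 28.

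Among 13 regulators of mitochondrial biogenesis, Ppargc1a, the coactivator often called PGC-1α, was not called by limma with all libraries in the same 3 comparisons, with 0.21, 0.14 and 0.27 on the log2 scale, but it was in uninjected hearts without Xinβ KO replicate 1 (0.51, limma adjusted p 0.0346). Of the 13, 2 were called in each of the injected comparisons, beside 13.7% and 14.8% of all genes. Ppargc1b, a relative of Ppargc1a, rose in Xinβ KO/GFP versus WT/GFP (0.35 ± 0.10), as did Esrra, the nuclear receptor ERRα (0.27 ± 0.07). With YAP(S127A) in Xinβ KO hearts Esrra fell (-0.24 ± 0.07) and Perm1, a muscle regulator downstream of both, rose (0.50 ± 0.13). Of 28 alternatives, 20 made the call of Ppargc1b, 22 and 18 those of Esrra and 26 that of Perm1.

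The nuclear-encoded partners of the 10 proteins had small log2 fold changes, and few were called. In uninjected hearts 33 of 36 complex I, 8 of 9 complex III, 14 of 14 complex IV and 16 of 16 ATP synthase genes had positive log2 fold changes, with medians of 0.18, 0.21, 0.20 and 0.20. limma called 0 of these, with 0, 1, 1 and 1 at an unadjusted p under 0.05, edgeR 0 and DESeq2 1, an ATP synthase gene, beside 6.69% of all genes called by limma and 22.5% at an unadjusted p under 0.05. Complex II, whose 4 subunits all come from nuclear genes, had a median of 0.12 in uninjected hearts and no gene at an unadjusted p under 0.05, nor a call by limma, edgeR or DESeq2, in any comparison. For Xinβ KO/GFP versus WT/GFP 21 of 36, 6 of 9, 12 of 14 and 9 of 16 were positive, with medians of 0.02, 0.03, 0.11 and 0.04, and 2 genes rose, beside 13.7% of all genes called in either direction, Ndufv1 (0.22 ± 0.07), which binds NADH, and Atp5c1 (0.33 ± 0.08), the rotor's γ subunit. For the vector in Xinβ KO hearts 4 of 36, 0 of 9, 1 of 14 and 2 of 16 were positive, with medians of -0.16, -0.15, -0.24 and -0.13, and 3, 0, 1 and 2 genes fell, beside 14.8% of all genes called. These included Cox6a2, the muscle form of a complex IV subunit (-0.61 ± 0.14), Atpif1, an inhibitor of the ATP synthase (-0.57 ± 0.09), Atp5c1 (-0.41 ± 0.08), Ndufa7 (-0.38 ± 0.11) and Ndufv1 (-0.22 ± 0.07). For the vector in Xinβ KO hearts the calls of Cox6a2, Atpif1 and Atp5c1 were made in 28 of 28 alternatives. That of Ndufa7 was made in 22 (-0.26 and limma adjusted p 0.0601 without Xinβ KO/GFP replicate 2), and those of Ndufv1 in 16 for Xinβ KO/GFP versus WT/GFP and in 18 for the vector.

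Markers of cell types moved beside the 10 genes, and their part in these values was not tested. The counts in uninjected Xinβ KO versus WT, Xinβ KO/GFP versus WT/GFP and Xinβ KO/YAP(S127A) versus Xinβ KO/GFP stand beside 6.69%, 13.7% and 14.8% of all genes called. Of 14 cardiomyocyte markers 2, Tnnt2 and Pln, rose in uninjected Xinβ KO versus WT and 3, these and Myh7, in Xinβ KO/GFP versus WT/GFP, and the same 3 fell in Xinβ KO/YAP(S127A) versus Xinβ KO/GFP. Of 8 fibroblast markers 4 (Col1a1, Col1a2, Col3a1 and Lum) fell, 6 fell and 6 rose in the same order. Of 8 macrophage markers 6 fell, 6 fell and 1 rose, and 6 rose. The summed fibroblast markers stood at 5146 to 5380.4 CPM in uninjected WT and 2525 to 3869 in Xinβ KO, at 4615 to 5447 in WT/GFP, 2156 to 3580.1 in Xinβ KO/GFP and 4989.9 to 6002 in Xinβ KO/YAP(S127A). Those of cardiomyocytes stood at 84772 to 92885 and 94978 to 116496 in uninjected hearts, and at 69210.1 to 85887, 80777 to 90874 and 77835 to 82005 in the 3 injected groups. Macrophage markers summed to 82.0 to 101.7 and 33.3 to 58.9 CPM in uninjected WT and KO, and to 99.1 to 149, 37.5 to 99.4 and 104 to 124 in the same injected groups.

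Other cell types were followed by shorter lists in the same order of comparisons, beside the same shares of all genes called (6.69%, 13.7% and 14.8%). Of 8 endothelial markers 1 fell (Kdr), 3 fell (Kdr, Cdh5 and Tek), and 2 rose (Kdr and Cdh5) while 1 fell (Emcn). Of 7 smooth muscle and pericyte markers Myh11 fell in the first and the second comparison, and Myh11, Acta2 and Rgs5 rose in the third. Of 8 erythroid markers 6 were tested in uninjected and 7 in injected hearts, and 0 were called, 5 fell and 0 were called (0 also by edgeR and DESeq2, and 0 at an unadjusted p under 0.05, in uninjected hearts and for the vector in Xinβ KO hearts), at sums of 1214 to 8425 CPM in injected hearts. 3 of 6 neutrophil markers were listed, S100a8, S100a9 and Ngp, and all 3 rose, rose and fell, at sums of 3.73 to 9.37 CPM in uninjected WT, 45.3 to 99.2 in uninjected Xinβ KO, 5.38 to 10.3 in WT/GFP, 28.2 to 46.9 in Xinβ KO/GFP and 3.04 to 11.2 in Xinβ KO/YAP(S127A). No listed marker of any of these types was at 0 in every library. The markers named here were picked after their values were seen.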

How the data were processed

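RNA from the heart (apex per the labels) was measured by poly(A)-selected, strand-specific RNA-seq in 24 libraries, 4 in each of 6 groups. Per the labels and the submitters' processing notes, the authors trimmed reads with cutadapt 2.3, checked them with FastQC, aligned them to GRCm38 with HISAT2 2.1.0, assembled them along annotated transcripts with StringTie 1.3.4, turned the coverage into gene counts with the script that comes with StringTie and normalized these with edgeR 3.26.1. The deposited values are treated as a signal: counts divided by a library size that the authors had scaled, called CPM here, with column sums between 942566 and 1134439. Whether a read that fits several genes was counted for 1 or for all of them, and the strand setting of the counting, are not given in the sources used here. The authors tested counts with Fisher's exact test. Here the deposited values were tested as log2(CPM + 1), because they are normalized. Whole counts were recovered from the value of a single count, 100% of values being whole within 0.1, and summed to between 15015038 and 31154155 per library. Such counts rest on the read length given to that script, which is not given in the sources used here. Of 15667 and 15327 listed genes, 15655 and 15314 matched GENCODE M21 identifiers.

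Genes with a value over 1 in at least 4 of 8 uninjected or 8 of 16 injected libraries were tested. limma 3.58.1 (R 4.3.3) with a trended variance was fitted separately to each table, with all 4 injected groups in 1 fit, and p-values were adjusted by Benjamini-Hochberg over all genes of a table, with a threshold of 0.05. Fold changes on the log2(CPM + 1) scale understate the change of genes at low values. limma was tested on simulated data with 200 changed genes, each changed by 1 or 2 on the log2 scale. Of those changed by 1, it called 83 of 85 in the uninjected comparison and 94 of 97 in Xinβ KO/GFP versus WT/GFP. Each of these comparisons also had 14 false calls. Smaller changes were not simulated, and most log2 fold changes of the mitochondrially encoded protein genes were smaller. How many of such changes limma would call was therefore not tested. The recovered counts were also tested with edgeR 4.0.16 and with DESeq2 1.42.0. Further alternatives left out each library in turn, took the replicate number as a block, scaled or filtered the values in other ways, set the pseudocount to 0.1 or dropped the trend from limma. Summing genes with their nuclear copies, and scaling without both, were added after the data were seen. DESeq2 gave no adjusted p for mt-Atp6 in the 6 injected comparisons, which stayed out of its counts.

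The genes and lists were chosen with earlier results of these data known. Named were the 10 genes, the other genes of the mitochondrial chromosome, nuclear copies at 95% identity or more over at least 100 bases (blastn 2.17.0, annotated transcripts), Polrmt, Tfam, Lrpprc, Slirp, Ppargc1a and Xirp2, up to 4 called genes with the lowest adjusted p per comparison from each of 4 lists of mitochondrial upkeep, up to 2 per complex of its nuclear subunits, and the 5 genes most correlated with the mean of the 10.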

Additional observations from a re-analysis of the deposited data

Results flagged for a closer look

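Of 66 sets of 4 libraries looked at, a gene's level or the summed share in a group, 12 held a library so far from the other 3 that its gap, as a part of the whole range, exceeded Dixon's 95% critical value. Chance gives such a library in about 1 in 20 groups, and the 10 genes of a library are not independent of each other.

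7 of the 12 were Xinβ KO/GFP replicate 2. It stood at 24579.9 CPM for mt-Nd4 (the other 3 at 16564 to 17214), 20834.3 for mt-Nd5 (15109 to 15974), 35136.4 for mt-Cytb (21801 to 23693), 17961.2 for mt-Co2 (11619.7 to 12388), 14548.8 for mt-Co3 (9424 to 9790.0) and 13689.4 for mt-Atp6 (2001 to 2230.3). The 10 genes together held 22.5579% of its listed reads, where the other 3 libraries had 16.8% to 17.1%.

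Uninjected Xinβ KO replicate 1 was high for mt-Nd4, at 15410.7 CPM beside 13410.0 to 13665, and for mt-Nd6, at 4277.52 beside 3266 to 3343. WT/GFP replicate 3 was high for mt-Cytb, at 27502.9 beside 19659 to 20430.4, and for mt-Co3, at 10795.4 beside 8587 to 8911. WT/YAP(S127A) replicate 1 was low for mt-Co1, at 42925.4 beside 56138 to 56985.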

How the results depend on the processing

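The sign of the median log2 fold change over the 10 genes was the same under every alternative in all 7 comparisons. The number called moved from 0 to 1 in uninjected Xinβ KO versus WT with limma without the trend, edgeR or DESeq2, and in the interaction with DESeq2. In Xinβ KO/YAP(S127A) versus Xinβ KO/GFP it moved from 0 to 2 with median-ratio scaling, a pseudocount of 0.1 or limma without the trend, to 3 with edgeR and to 5 with DESeq2, and the cause was not tested. Leaving out single libraries gave 0 to 1 (1 without uninjected KO replicate 1), 0 to 2 (1 without KO/GFP replicate 3 or 4, 2 without WT/GFP replicate 3 or WT/YAP(S127A) replicate 1) and 0 to 1 (1 without WT/GFP replicate 3) in these comparisons, and 0 in the other 4. The medians then ran from 0.18 to 0.31 in uninjected hearts, 0.15 to 0.41 for KO/GFP versus WT/GFP, -0.50 to -0.31 for KO/YAP(S127A) versus KO/GFP, -0.22 to -0.04 versus WT/GFP, 0.01 to 0.17 for WT/YAP(S127A) versus WT/GFP, -0.31 to -0.17 for KO/YAP(S127A) versus WT/YAP(S127A) and -0.61 to -0.38 for the interaction. Scaling to the column sum shifted the median of all genes by -0.12 in uninjected hearts, 0.12 for KO/YAP(S127A) versus KO/GFP and 0.11 for the interaction, and with it the median of the 10 was 0.10, -0.30 and -0.37; all genes called in uninjected hearts were then 1594 rather than 1044, and 1955 with DESeq2. Leaving out single libraries moved all genes called to 379 (without WT replicate 1) to 2098 (without KO replicate 4) there, 1262 to 2756 from 1993 for KO/GFP versus WT/GFP and 631 to 1474 from 1104 for the interaction. DESeq2 called 24, 71 and 11 of all genes rather than 3, 6 and 0 for KO/YAP(S127A) versus WT/GFP, KO/YAP(S127A) versus WT/YAP(S127A) and WT/YAP(S127A) versus WT/GFP. With nuclear copies added, the 10 genes held 16.9% and 19.2% of reads in uninjected WT and KO (13.1% in KO for all listed mitochondrial genes) and 20.3%, 23.1%, 20.7% and 17.9% in WT/GFP, KO/GFP, WT/YAP(S127A) and KO/YAP(S127A), and CPM per kb became 11300, 41200, 29600, 27800 and 14300 in uninjected and 15200, 42300, 32400, 23700 and 16400 in injected hearts for mt-Nd4, mt-Co1, mt-Co2, mt-Co3 and mt-Atp6. Same-numbered libraries did not deviate together (correlations of -0.17 to 0.14 over 24 injected and -0.19 to 0.10 over 4 uninjected pairs, 4 of 28 best with their own number), so a number is no pair. The replicate block left 0 of the 10 genes called and the medians as they were (0.24 in uninjected hearts), while the share of all genes called went from 6.69% to 2.47% there and from 7.56% to 4.84% in the interaction.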

Other observations

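The genes whose log2 level followed the mean of the 10 most closely are given by Pearson's r over libraries, as a description. In uninjected hearts, over 8 libraries, they were Gm47322 (0.978), Rab1a (0.977), Gm10925 (0.972), Tmem161b (0.956) and Urm1 (0.943). In injected hearts, over 16 libraries, they were 4 of the nuclear copies, Gm10925 (0.980), Gm28437 (0.972), Gm28661 (0.967) and Gm28439 (0.959), and then Gpr135 (0.920). With the copies set aside, Gpr135 was followed by Nsrp1 (0.901), Dlg3 (0.890), Srek1 (0.883) and Cox6c (0.861), the last a nuclear-encoded complex IV subunit. The libraries of a table share depth, scaling and the differences between groups, which such correlations hold as well.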
